A study of Mus musculus with 2 samples.

Results

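The keratins of the lung epithelium were followed as 8 genes, *Krt5*, *Krt7*, *Krt8*, *Krt14*, *Krt15*, *Krt17*, *Krt18* and *Krt19*, chosen by symbol from the 31053 genes of the data, and all 8 were found in both libraries. The cells came from lungs of *Pclaf* WT and *Pclaf* KO mice aged 8 to 10 weeks, taken 1 week after bleomycin, a drug that injures the alveolar epithelium, at 1.35 U/kg as the deposited description gives it (the paper's methods give another dose). *Pclaf* encodes a partner of the replication clamp PCNA, and the KO is a germline deletion. Both genotypes received bleomycin, and no uninjured library was analysed here. The paper's methods name male mice, but genes of both sexes were read in each library, as given below. Each genotype was measured in 1 library of 10x Genomics droplets, and how many animals went into it is not given in the sources used here. All differences below therefore set 1 library against another, with no replicate check and no test.

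Keratins are the intermediate filaments of epithelial cells. A type II keratin (*Krt5*, *Krt7*, *Krt8*) pairs with a type I keratin (*Krt14*, *Krt15*, *Krt17*, *Krt18*, *Krt19*) to form a filament, so a cell needs members of each type. *Krt8* and *Krt18* are the partners of simple epithelia, *Krt7* and *Krt19* are found with them in many ducts and airways, and *Krt5*, *Krt14*, *Krt15* and *Krt17* are known from basal cells of stratified or pseudostratified epithelia. In injured lung, a high *Krt8* level is widely used to mark cells in transition from the alveolar type 2 (AT2) to the alveolar type 1 (AT1) state.

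In the annotation of GRCm38, the type II genes lay on chromosome 15, *Krt7* at chr15:101411043-101430313 (+), *Krt5* at chr15:101707070-101712898 (-) and *Krt8* at chr15:101996698-102004482 (-). The type I gene *Krt18*, at chr15:102028180-102032027 (+), was the neighbor of *Krt8* on the other strand, with 23.7 kb between the 2 genes. The other type I genes lay together on the minus strand of chromosome 11, *Krt15* at chr11:100131758-100135928, *Krt19* at chr11:100140810-100148665, *Krt14* at chr11:100203162-100207548 and *Krt17* at chr11:100256217-100261029. The promoters of *Krt8*, *Krt18* and *Krt7* are shown because these genes carry most of the keratin signal below and because *Krt8* and *Krt18* parted between the libraries. The windows run from 250 bases before to 50 bases after the start in RefSeq (GRCm38.p6). This start lies inside the annotated gene above for each of the 3 genes, furthest for *Krt7*. Capitals mark matches, on either strand, to the TATA box with the letters TATAAA, the GC box with the letters CCGCCC, the site of the AP-1 factors with the letters TGANTCA or the box with the letters CCAAT.
Krt8, chr15:102004293-102004592 (-): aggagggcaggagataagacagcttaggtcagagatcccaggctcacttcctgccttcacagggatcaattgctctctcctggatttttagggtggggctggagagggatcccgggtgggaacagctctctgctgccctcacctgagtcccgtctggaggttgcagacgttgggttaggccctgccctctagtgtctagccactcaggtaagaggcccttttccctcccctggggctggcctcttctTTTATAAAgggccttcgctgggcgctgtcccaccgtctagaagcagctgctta
Krt18, chr15:102027966-102028265 (+): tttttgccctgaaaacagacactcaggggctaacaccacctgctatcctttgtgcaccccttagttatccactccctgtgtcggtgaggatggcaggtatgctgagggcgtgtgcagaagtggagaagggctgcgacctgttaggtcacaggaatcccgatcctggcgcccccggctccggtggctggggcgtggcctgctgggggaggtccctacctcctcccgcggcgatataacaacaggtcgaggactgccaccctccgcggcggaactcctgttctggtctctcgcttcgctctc
Krt7, chr15:101412153-101412452 (+): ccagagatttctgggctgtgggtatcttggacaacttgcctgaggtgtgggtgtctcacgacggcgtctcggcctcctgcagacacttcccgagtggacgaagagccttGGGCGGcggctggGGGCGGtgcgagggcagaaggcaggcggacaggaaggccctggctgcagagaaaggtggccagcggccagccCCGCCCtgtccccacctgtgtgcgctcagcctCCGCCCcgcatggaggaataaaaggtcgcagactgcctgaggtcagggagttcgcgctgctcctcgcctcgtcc
The *Krt8* window held TATAAA, as did 13.6% of the 32851 promoters of this length. Its 2 overlapping matches, on opposite strands, began at positions -3 and -1 and so lay across the RefSeq start itself. The *Krt7* window held 4 copies of CCGCCC, which 35.7% of promoters held at least once. The *Krt18* window held no match to any of the 4 motifs. TGANTCA, present in 7.81% of promoters, and CCAAT, present in 37.4%, were in none of the 3 windows.

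The WT matrix held 98171818 UMIs (counted RNA molecules) on 30669 barcodes and the KO matrix 111267567 on 17172, and 163 barcodes occurred in both. The median kept cell carried 2127 (WT) or 5957 UMIs (KO). The labels call all cells epithelial, sorted as Epcam+ without Cd31 and Cd45, but cells that passed an epithelial gate made up 2.24% of kept WT cells (676) and 52.3% of kept KO cells (8174), and 35.6% and 2.72% passed the immune gate and 26.5% and 2.61% the endothelial gate. A cell passed a gate with at least 3 of 6 marker genes of a class, none of them a keratin, and is called by that gate, for example transitional-gated (*Cldn4*, *Sfn*, *Sprr1a*, *Tnip3*, *Itgb6*, *Plaur*). The WT and KO libraries gave 406 and 5971 AT2-gated cells, 52 and 343 transitional-gated, 63 and 357 AT1-gated, 57 and 489 club-gated, 89 and 933 ciliated-gated, and 66 and 132 mesothelial-gated cells. Basal-gated (2 and 34), neuroendocrine-gated (5 and 35) and goblet-gated cells (2 and 12) were too few in WT for a ratio. *Pclaf* itself was at 8.05 CPM (CPM are UMIs of a gene over all UMIs of the cells in the gate, scaled as is usual for counts) in WT and 4.65 CPM in KO over the epithelial-gated cells (31 and 303 UMIs). The summed level of the 6 immune markers was 39.8 to 79.4 CPM over the 6 larger gates in WT and 7.98 to 14.7 CPM in KO, and that of the 6 endothelial markers was 32.2 to 69.1 CPM and 4.04 to 18.9 CPM. None of the immune markers was at 0 in these WT gates, while in KO *Laptm5* was at 0 in transitional-gated, *Ptprc* and *Coro1a* in AT1-gated and *Cd52* in mesothelial-gated cells. Of the endothelial markers, *Tie1* was at 0 in transitional-gated, AT1-gated and club-gated WT cells, *Tie1* in AT1-gated KO cells, and *Cdh5* and *Tie1* in mesothelial-gated KO cells. The part of such RNA in the keratin differences was not tested. Over all kept cells, *Xist*, a gene read in female cells, was at 254 (WT) and 498 CPM (KO). The Y-linked genes were at 74.0 and 24.0 CPM for *Ddx3y*, 55.9 and 22.7 for *Uty*, 37.0 and 16.2 for *Eif2s3y*, and 16.4 and 5.73 for *Kdm5d*. The part of sex in the differences between the libraries was not tested.

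*Krt8*, *Krt18*, *Krt7* and *Krt19* were read in every larger epithelial gate and in mesothelial-gated cells, and their order of levels differed from gate to gate. Among gates with over 50 cells in each library, *Krt8*, the type II partner of simple epithelia, was highest in transitional-gated cells, at 1767 CPM in WT (95% interval 1629 to 1914) and 1833 CPM in KO (1780.3 to 1887). It was next in ciliated-gated cells (823 and 982 CPM) and AT1-gated cells (723 and 815 CPM), whose intervals overlapped in WT but not in KO. It was lower in mesothelial-gated (278 and 330 CPM), AT2-gated (268 and 239 CPM) and club-gated cells (227 and 228 CPM), and these 3 overlapped in WT. Endothelial-gated cells, taken as background because they should lack these 4 simple keratins, held *Krt8* at 6.89 (WT) and 12.6 CPM (KO). All intervals cover counting error only, and since molecules were counted from their poly(A) end, these levels are not scaled by transcript length.

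*Krt18* had the same leading gate, with 1949.7 (WT) and 2679 CPM (KO) in transitional-gated cells, but stood at only 292 and 459 CPM in ciliated-gated cells. In AT1-gated cells it was at 646 and 845 CPM, and in AT2-gated cells at 205 and 230 CPM. *Krt7* was instead highest in AT1-gated cells, at 1252 CPM in WT (1116 to 1399) and 1414 CPM in KO (1362 to 1468), above its level in transitional-gated cells (818 and 924 CPM) in both libraries. *Krt19* was at 926 and 983 CPM in transitional-gated and at 727 and 982 CPM in AT1-gated cells, and it was the leading keratin of mesothelial-gated cells, with 582 (WT) and 972 CPM (KO), although in WT its interval overlapped that of *Krt7* (506 CPM). It also led in club-gated cells (282 and 330 CPM), ahead of *Krt18* in KO (284 CPM) and of *Krt8* in WT (227 CPM), where the intervals overlapped. In ciliated-gated cells *Krt19* was at 543 and 547 CPM, below *Krt8*. In AT2-gated cells *Krt7* (102 and 93.0 CPM) and *Krt19* (51.6 and 54.9 CPM) were low beside *Krt8* and *Krt18*. Neuroendocrine-gated cells of the KO library, 35 in number, held *Krt18* at 1023 CPM and *Krt7* at 487 CPM with *Krt19* at 6.96 CPM (2 UMIs), so the *Krt19* of these cells was at the endothelial level of 7.07 CPM.

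**Figure D1:**
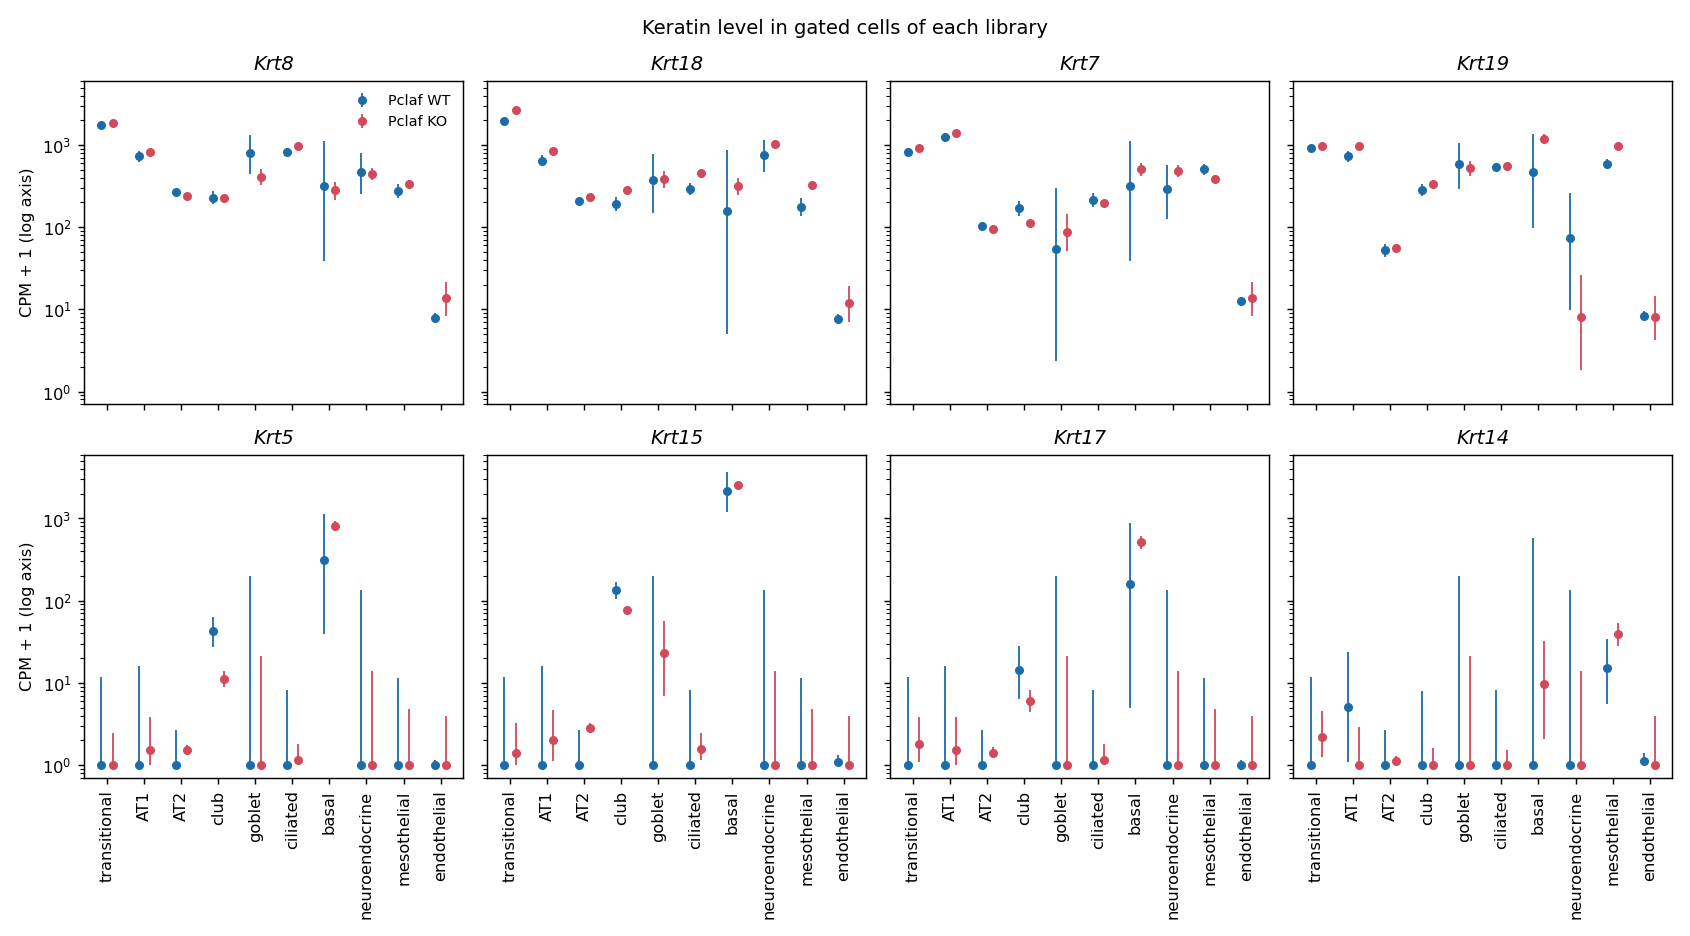
Level of each keratin (CPM + 1, log axis, 95% Poisson interval as bars) in the gates of the *Pclaf* WT and KO libraries. The upper row shows the simple epithelial keratins, read in every larger epithelial gate, with *Krt19* at the endothelial level in KO neuroendocrine-gated cells. The lower row shows the basal-type keratins, of which *Krt5*, *Krt15* and *Krt17* peak in basal-gated cells and *Krt14* in mesothelial-gated cells.

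Within AT2-gated cells, the simple keratins rose in steps with the number of transitional markers read in a cell, and did so in both libraries. *Krt8* was at 214 CPM in the 311 WT cells with no such marker, 342 CPM in the 85 with 1 and 888 CPM in the 10 with 2 or more. In KO the same steps were 183, 273 and 672 CPM (4407, 1256 and 308 cells). *Krt19* went from 31.8 to 55.3 and 431 CPM in WT and from 31.7 to 61.7 and 258 CPM in KO, a steeper climb than that of *Krt8*. Deeper cells show more markers, and the median depth also grew along the steps, from 4913 to 7448.5 UMIs in WT and from 7030 to 10007.5 in KO. The AT2-gated cells with at least 3 cycling markers had *Krt8* at 771 CPM in WT (530.5 to 1082, 8 cells) and 456 CPM in KO (419 to 496, 117 cells), against 258 and 233 CPM in the other AT2-gated cells.

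Within transitional-gated cells, *Krt7* rose with the number of AT1 markers. It was at 654, 831 and 1408 CPM in WT cells with up to 1, 2, and 3 or more AT1 markers (34, 11 and 7 cells), and at 726, 972 and 1470.0 CPM in KO cells (214, 82 and 47 cells). The median depth grew along these steps as well, from 5565 to 7304 UMIs in WT and from 5931.5 to 9367 in KO. *Krt7* was also highest in the cells with 2 or more AT2 markers, at 578, 618 and 1493 CPM in WT cells with none, 1, and 2 or more, and at 903, 818 and 1014 CPM in KO. Along the AT1 marker steps *Krt18* did not rise throughout, with 2061, 1551 and 2042 CPM in WT and 2629.9, 2799 and 2666 CPM in KO. *Krt8* rose along them in KO (1568, 2056 and 2345 CPM) but not in WT (1853, 1205 and 2165 CPM).

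Between the libraries, *Krt18* was the member whose interval lay on the same side of 0 in all 6 gates compared. It was higher in KO by 0.46 on the log2 scale in transitional-gated cells (95% interval 0.34 to 0.58), 0.16 in AT2-gated (0.03 to 0.30), 0.39 in AT1-gated (0.15 to 0.63), 0.58 in club-gated (0.29 to 0.89), 0.65 in ciliated-gated (0.42 to 0.90) and 0.88 in mesothelial-gated cells (0.48 to 1.29). *Krt18* was also higher in KO outside these gates. It was at 7.26 and 30.7 CPM in immune-gated cells (2.08) and at 2.51 and 7.97 CPM in mesenchymal-gated cells (1.67). Ungated cells held 149 and 464 CPM (1.64). In endothelial-gated cells the interval of *Krt18* crossed 0 (0.74, -0.16 to 1.53). The rise outside the 6 gates was not particular to *Krt18*. *Krt8* also had intervals above 0 there, at 6.81 and 22.2 CPM in immune-gated and 2.63 and 9.61 CPM in mesenchymal-gated cells. It was at 160 and 402 CPM in ungated and 6.89 and 12.6 CPM in endothelial-gated cells. *Krt7* and *Krt19* were higher in KO immune-gated and ungated cells, and *Krt7* was lower in KO mesenchymal-gated cells. Whether the rise of *Krt18* in the 6 gates is separate from that in these other cells was not tested. *Krt8* had an interval above 0 in 1 of the 6 gates. Its log2 ratio, KO over WT, had an interval across 0 in transitional-gated (0.05, -0.07 to 0.18), club-gated (0.00, -0.26 to 0.29), AT1-gated (0.17, -0.05 to 0.40) and mesothelial-gated cells (0.25, -0.08 to 0.59). It was higher in KO ciliated-gated cells (0.25, 0.11 to 0.40) and lower in KO AT2-gated cells (-0.16, -0.28 to -0.04), where the median of all genes was at -0.12 (and at -0.13 in club-gated cells). Scaling by TMM, which moved that median toward 0, left *Krt8* in AT2-gated cells at -0.039.

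*Krt7* had intervals on both sides of 0 in different gates, while *Krt19* had none below 0. *Krt7* was lower in KO club-gated (-0.58, -0.90 to -0.25) and mesothelial-gated cells (-0.39, -0.65 to -0.13), higher in AT1-gated cells (0.18, 0.01 to 0.35, with an interval off 0 in 9 of 12 alternatives) and had an interval across 0 in transitional-gated, AT2-gated and ciliated-gated cells. Of the WT club-gated *Krt7* UMIs, 28 of 89 lay in 3 cells that also carried *Krt5*, and in the other 54 cells *Krt7* was at 119 CPM (91.1 to 153), against 110.3 CPM (102 to 119) in the 473 KO club-gated cells without *Krt5*. Gating on cells thinned to 1000 UMIs turned the club-gated *Krt7* ratio to 0.64 (0.19 to 1.13). *Krt19* was higher in KO mesothelial-gated (0.74, 0.52 to 0.96) and AT1-gated cells (0.43, 0.21 to 0.66) and had an interval across 0 in the other 4 gates.

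**Figure D2:**
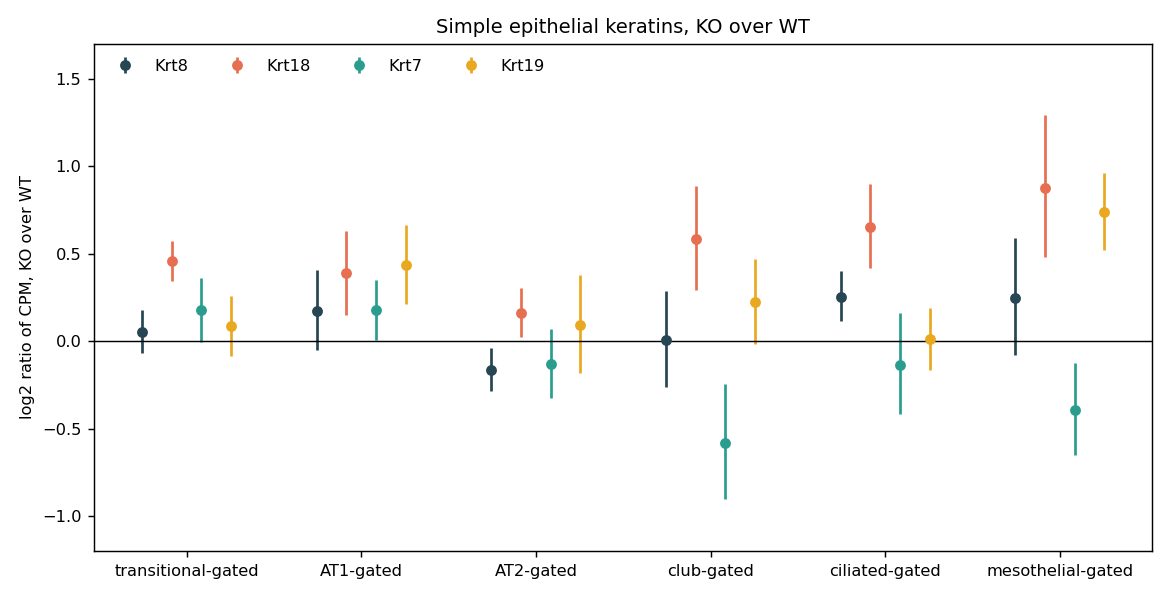
Log2 ratio of CPM, KO over WT, of the simple epithelial keratins in 6 gates, with the 95% interval for counting error as bars and equal levels at the line. *Krt18* lies above the line in all 6 gates, between 0.16 and 0.88, while *Krt7* lies below it in club-gated and mesothelial-gated cells.

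Members 2-fold apart between the libraries were counted beside the share over all genes. With 4 to 6 members per gate, a count of 0 or 1 cannot be told apart from that share. Of the 4 members with at least 50 summed UMIs in transitional-gated cells, 0 were 2-fold apart, where 7.15% of all 7246 genes with at least 50 UMIs were. In AT1-gated (4 members), ciliated-gated (4) and mesothelial-gated cells (4) the count was also 0, against 6.11%, 6.22% and 5.44% of all genes. In AT2-gated cells it was 0 of 5, against 6.47%, with the WT count of *Krt15* set at the floor of 3 UMIs. In club-gated cells it was 1 of 6, *Krt5*, against 9.07%.

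Because the gene pairs share a cell, the balance of the partners *Krt8* and *Krt18* does not depend on how the libraries were scaled. *Krt8* led in ciliated-gated cells of both libraries, *Krt18* led in KO transitional-gated and club-gated cells, and the interval included 1 in AT1-gated cells of both libraries. Transitional-gated cells held 0.906 *Krt8* UMIs per *Krt18* UMI in WT (0.810 to 1.01) and 0.684 in KO (0.659 to 0.710). AT2-gated cells held 1.31 (1.15 to 1.48) and 1.04 (1.01 to 1.07), and ciliated-gated cells 2.82 (2.34 to 3.42) and 2.14 (2.05 to 2.23). In both libraries the ciliated ratio stood above those of the other 5 gates compared here, and its interval overlapped none of theirs. The mesothelial-gated ratio was 1.57 in WT (1.13 to 2.19) and 1.02 in KO (0.866 to 1.19), the club-gated ratio 1.20 (0.913 to 1.58) and 0.804 (0.749 to 0.863), and the AT1-gated ratio 1.12 (0.899 to 1.40) and 0.965 (0.899 to 1.03).

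The ratio was lower in KO in each of these 6 gates. Expressed as *Krt18* over *Krt8*, the KO ratio exceeded the WT ratio by 0.41 on the log2 scale in transitional-gated cells (0.24 to 0.57), 0.33 in AT2-gated (0.14 to 0.51), 0.40 in ciliated-gated (0.12 to 0.67), 0.58 in club-gated (0.18 to 0.97) and 0.63 in mesothelial-gated cells (0.12 to 1.14). In AT1-gated cells it was 0.21 with an interval across 0 (-0.11 to 0.54). Outside these gates, ungated cells held 1.075 *Krt8* UMIs per *Krt18* UMI in WT (1.02 to 1.13) and 0.866 in KO (0.841 to 0.892). Immune-gated cells held 0.937 (0.794 to 1.11) and 0.722 (0.466 to 1.11). The ratio was not lower in KO in endothelial-gated cells, at 1.05 in WT (0.831 to 1.32) and 1.14 in KO (0.523 to 2.53). Nor was it in mesenchymal-gated cells, at 1.05 (0.542 to 2.04) and 1.21 (0.914 to 1.60). The part of RNA from other cells in the shift of the 6 gates was not tested.

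**Figure D3:**
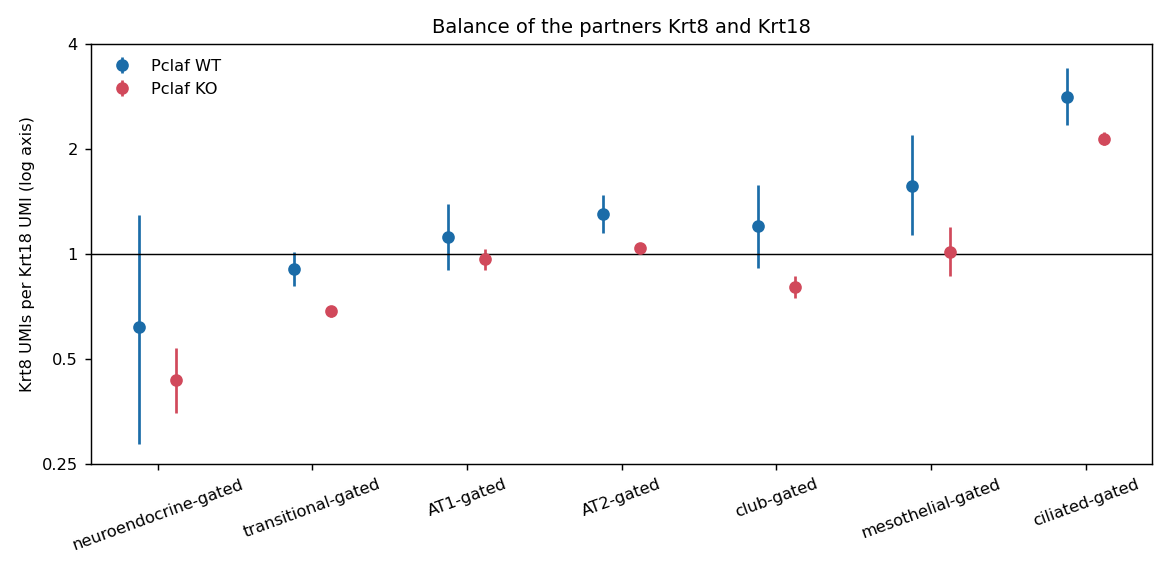
*Krt8* UMIs per *Krt18* UMI (log axis) in 7 gates of the WT and KO libraries, with the 95% interval for counting error, and equal counts at the line. The 7 gates drawn are the 6 compared and the neuroendocrine gate, the KO point lies below the WT point in each, and ciliated-gated cells stand highest, at 2.82 in WT and 2.14 in KO.

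How the keratins were combined within a cell was read after thinning every cell to 1000 UMIs, since KO cells were deeper. At that depth, *Krt8* was seen in 69.2% of WT transitional-gated cells (36 of 52, exact 95% interval 54.9% to 81.3%) and 67.0% of KO ones (227 of 339, 61.7% to 72.0%). *Krt18* was seen in 73.1% and 80.2%, *Krt19* in 44.2% and 44.2%, and *Krt7* in 38.5% and 38.3%. As background, 0.769% of 6766 WT and 2.29% of 350 KO endothelial-gated cells had *Krt8* at 1000 UMIs, from median depths of 2187 and 2323.5 UMIs against 5852 and 6759 in transitional-gated cells. Before thinning, the share of transitional-gated cells with all of *Krt8*, *Krt18*, *Krt19* and *Krt7* was 7.32 points higher in KO (-6.16 to 21.7).

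At equal depth, 17.3% of WT (9 of 52, 8.23% to 30.3%) and 15.6% of KO transitional-gated cells (53 of 339, 11.9% to 19.9%) carried all 4 simple keratins, a difference of -1.67 points (-14.6 to 7.32). The product of the 4 single shares was 8.61% in WT, inside the interval of the observed share, and 9.12% in KO, below it. *Krt8* with *Krt18* was found in 55.8% of WT and 59.0% of KO transitional-gated cells. AT1-gated cells carried all 4 in 10.9% and 11.4%. *Krt7* with *Krt19* was in 29.1% of WT and 34.1% of KO AT1-gated cells, where *Krt8* with *Krt18* was in 11 of 55 and 25.4%.

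At 1000 UMIs, AT2-gated cells mostly showed no keratin or a single one, while with all UMIs *Krt8* was read in 57.6% of WT and 64.2% of KO cells and *Krt18* in 49.8% and 63.1%. At 1000 UMIs, 59.6% of WT (242 of 406) and 62.8% of KO cells (3749 of 5969) had none of the 8, and 4.93% (3.03% to 7.51%) and 4.41% (3.90% to 4.96%) had both *Krt8* and *Krt18*, a difference of -0.52 points (-3.13 to 1.28). All 4 simple keratins were in 0.246% of WT (1 cell) and 0.251% of KO cells (15 cells). In ciliated-gated cells *Krt8* with *Krt18* was in 13.5% and 19.2%, and in mesothelial-gated cells *Krt7* with *Krt19* was in 14.1% and 15.9%, with *Krt8* and *Krt18* together in 7.81% and 7.58%.

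**Figure D4:**
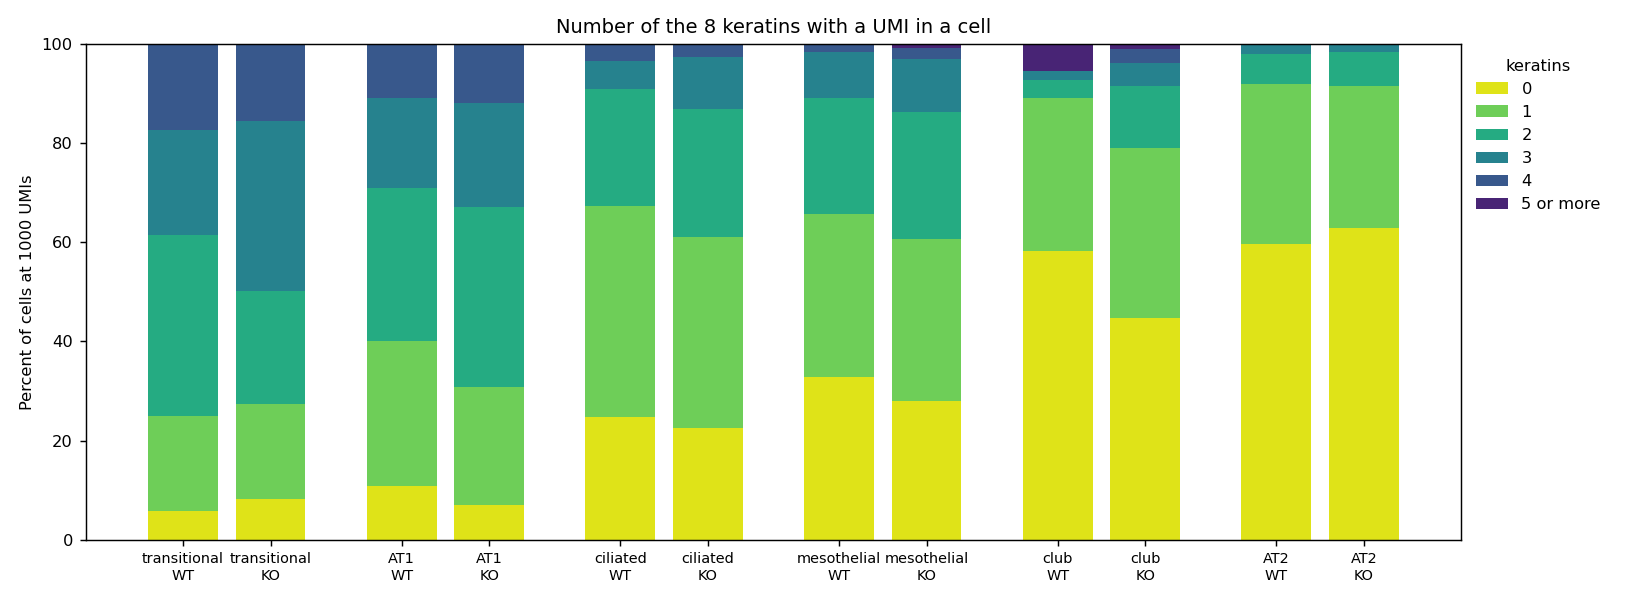
Share of cells at 1000 UMIs, in percent, by the number of the 8 keratins read in the cell, for 6 gates and both libraries. The share with 3 or 4 keratins is highest in transitional-gated cells, at 21.2% and 17.3% in WT and 34.2% and 15.6% in KO, and 59.6% of WT and 62.8% of KO AT2-gated cells hold none.

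The basal-type keratins were read in few cells. In the 34 KO basal-gated cells, chosen on *Trp63*, *Dapl1*, *Aqp3*, *Dlk2*, *Col17a1* and *Ngfr*, *Krt15* was at 2579.6 CPM (2375 to 2797), *Krt19* at 1191 CPM, *Krt5* at 815 CPM (702 to 940.5), *Krt17* at 517 CPM (428 to 619) and *Krt7* at 504 CPM. *Krt15*, a type I keratin, was read in 34 of these 34 cells and its type II companion *Krt5* in 28. *Krt8* (280.3 CPM) and *Krt18* (315 CPM) were low beside them. *Krt14*, often used with *Krt5* to name basal cells, had 2 UMIs in 1 of the 34 cells. The 2 WT basal-gated cells held 14 UMIs of *Krt15*, 2 of *Krt5* and 0 of *Krt14*.

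Among the gates, *Krt5* and *Krt15* were next highest in club-gated cells, mostly in those that also carried basal markers. *Krt5* was at 41.7 (WT) and 10.2 CPM (KO) (22 and 63 UMIs, log2 ratio -2.03, -2.75 to -1.26) and *Krt15* at 133 and 75.2 CPM (70 and 465 UMIs, -0.82, -1.18 to -0.44). All 22 and all 70 WT UMIs, and all 7 of *Krt17*, lay in 3 of the 57 cells, 56 of the *Krt15* UMIs in a single cell. In KO, *Krt5* lay in 16 of 489 cells and *Krt15* in 33. Gating on cells thinned to 1000 UMIs left *Krt5* with 0 UMIs in WT club-gated cells and turned the direction of both genes, so these ratios rest on those 3 WT cells. In the 16 KO club-gated cells with *Krt5*, *Krt15* was at 2819.9 CPM and *Krt19* at 1576 CPM, close to the basal-gated pattern, against 34.6 and 311 CPM in the other 473.

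Across all kept cells, *Krt5* and *Krt15* were found together in 10 WT cells and 94 KO cells. These cells carried a median of 3 basal and 4 club markers in WT and 4 of each in KO. Of the WT cells 3 were club-gated, 1 basal-gated, 1 immune-gated and 5 ungated, and of the KO cells 28 were basal-gated, 16 club-gated, 4 AT2-gated, 1 ciliated-gated and 45 ungated. In transitional-gated cells, *Krt5*, *Krt14*, *Krt15* and *Krt17* were all at 0 in WT, which allows up to 8.82 CPM each, and at 0, 3, 1 and 2 UMIs in KO, so they were not detected above the level of a few UMIs in either library. With up to 2 markers of another lineage allowed, the KO gate held 171 *Krt15* UMIs, in 2 cells. In AT2-gated cells *Krt15* had 0 UMIs in WT and 84 in KO, of which 42 lay in 3 of 5971 cells. The KO level of 1.80 CPM (1.44 to 2.23) had an interval that overlapped that of the WT count of 0. The interval of the log2 ratio, KO over WT, ran from 0.05 upward.

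Of the gates, the mesothelial one held *Krt14* at its highest level in both libraries. Ungated cells held more *Krt14* UMIs, 7 of 17 in WT and 107 of 155 in KO, against 5 and 37 in mesothelial-gated cells. *Krt5* and *Krt14* were found together in 2 WT cells (1 immune-gated and 1 ungated) and 6 KO cells (1 basal-gated and 5 ungated). Of the 37 KO cells with a *Krt14* UMI, 19 were mesothelial-gated, 11 ungated, 4 AT2-gated, 2 transitional-gated and 1 basal-gated, and of the 10 WT cells 3 were mesothelial-gated. Mesothelial-gated cells, selected by *Msln*, *Upk3b*, *Lrrn4*, *Wt1*, *Nkain4* and *Upk1b*, held *Krt14* at 14.1 CPM in WT (5 UMIs in 3 of 66 cells) and 38.4 CPM in KO (37 UMIs in 19 of 132 cells), a log2 ratio of 1.45 (0.10 to 3.16) on fewer than 50 UMIs. *Krt5*, *Krt15* and *Krt17* were at 0 UMIs in these cells in both libraries. *Krt14* and *Krt17* shared 23 of 441 stretches of 60 bases (5.22%) in the last 500 bases of their transcripts. Only a read that lies wholly within shared sequence cannot be assigned to 1 of them. The other 6 members shared no such stretch with another gene.

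**Figure D5:**
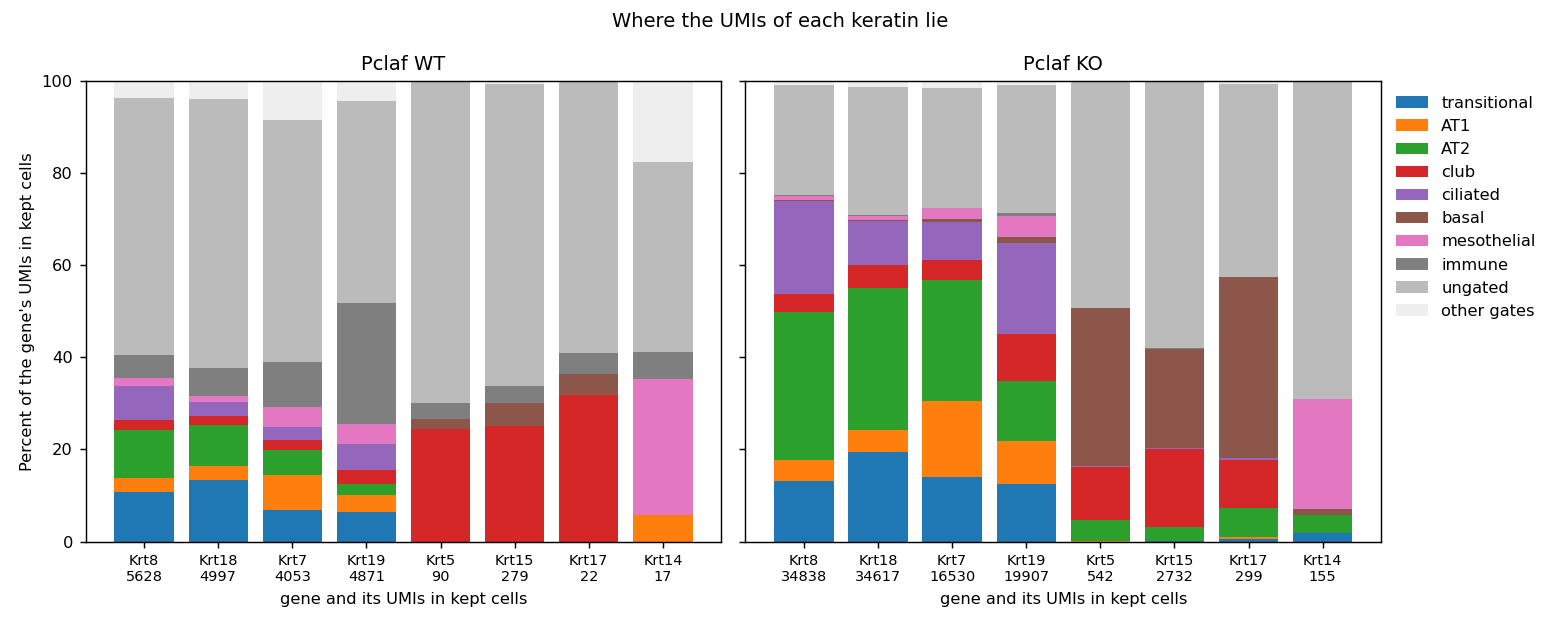
Percent of the UMIs of each keratin in kept cells by gate, in the WT and KO libraries, with the number of UMIs under each gene. The basal-type genes have few UMIs and the ungated cells (grey) hold 52.6% to 58.4% of WT *Krt7*, *Krt8* and *Krt18* UMIs but 23.8% to 27.7% in KO.

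A large part of the keratin signal lay outside the gates. Ungated cells, of a median depth of 806 (WT) and 3026.5 UMIs (KO), held 58.4% of WT and 27.7% of KO *Krt18* UMIs and 57.7% of KO *Krt15* UMIs. Of the cells with at least 2 pan-epithelial markers, 57.2% in WT and 8.66% in KO also had more than 1 marker of an immune, endothelial or mesenchymal list, which keeps a cell out of the epithelial gates. With up to 3 such markers allowed, *Krt8* in transitional-gated cells had a log2 ratio of -0.073 (-0.17 to 0.03) from 74 WT and 363 KO cells, and *Krt18* had a ratio above 0 in all 6 gates under each of the 12 alternatives. Its interval reached 0 under 1 alternative in AT2-gated cells (clusters in place of gates, 0.09, -0.02 to 0.21) and 1 in AT1-gated cells (gated at 1000 UMIs, 0.21, -0.10 to 0.54).

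Over the 18 sums of 9 gates and 2 libraries with at least 50 cells each, including the immune, endothelial and mesenchymal gates, the profile of *Krt8* was most like those of *Krt18* (Pearson r = 0.981 of log2(CPM + 10)), *Cgn*, a tight junction gene (0.955), and *Gm45051* (0.953). *Krt18* was most like *Krt8*, *Gm45051* (0.964) and *Tuft1* (0.955). *Krt7* was most like *Cgn* (0.980), *Tuft1* (0.966) and *Tgfa*, a growth factor gene (0.966), and *Krt19* like *Lsr*, a tricellular junction gene (0.950), *Krt7* (0.935) and *Perp*, a desmosome gene (0.935). Sums of 1 library share its depth and free RNA, and 12 of the 18 points come from epithelial or mesothelial gates, so these values describe the pattern of expression only. *Krt5* was most like *Krt17* (0.995), *Krt15* like *Galnt5* (0.997), *Krt17* like *Ntsr2* (0.996) and *Krt14* like *Cdh12* (0.985), which rest on few UMIs, those of *Krt5* and *Krt15* mostly in the club-gated sums and those of *Krt14* mostly in the mesothelial-gated sums.

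The genes that anchor keratins to the cell surface were followed by 3 lists. Of 11 desmosome genes, 7 had at least 50 UMIs in transitional-gated cells, and 0 were 2-fold apart (7.15% of all genes were), with a median log2 ratio of 0.28 against -0.01 over all genes and values from -0.86 for *Ppl*, a plakin, to 0.96 for *Pkp2*, a plaque protein. Of 7 hemidesmosome and linker genes, 7 had enough UMIs and 1 was over 2-fold higher in KO, the laminin gene *Lama3* (61.8 and 126 CPM, 1.03, 0.39 to 1.74). In the other 5 gates, 5.44% to 9.07% of all genes were past 2-fold. The desmosome list had 0 such genes there except *Evpl*, lower in AT1-gated cells (-1.07, -2.01 to -0.01). The hemidesmosome list had 1 gene past 2-fold in AT2-gated cells, *Itgb4* (1 and 92 UMIs, 2.10, -0.42 to 7.42). *Lamb3* was past it in club-gated (5 and 119 UMIs, 1.02, -0.24 to 2.67) and ciliated-gated cells (2 and 63 UMIs, 1.18, -0.74 to 4.25). The intervals of *Itgb4* and *Lamb3* in these gates crossed 0. The linker *Plec*, which ties keratins to hemidesmosomes, was at 247 and 263 CPM in transitional-gated cells. Among other intermediate filament genes, *Vim* is the filament of mesenchymal and immune cells. It was lower in KO in transitional-gated (47.1 and 13.1 CPM), AT2-gated (41.9 and 9.48 CPM, -2.14), club-gated (37.9 and 7.92 CPM, -2.26) and ciliated-gated cells (46.7 and 9.63 CPM, -2.28). In AT1-gated cells its interval crossed 0 (-1.22, -2.40 to 0.13). *Vim* was higher in KO in mesothelial-gated cells (1242 and 1918 CPM, 0.63, 0.48 to 0.78), and it was at 1058 CPM in WT immune-gated cells.

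Of the other 45 *Krt* genes, 10 had at least 50 UMIs in kept cells. *Krt23* was at 61.7 and 64.2 CPM in AT2-gated and 88.2 and 85.2 CPM in transitional-gated cells, at 19.0 and 27.7 CPM in club-gated cells, and had 0 UMIs in WT and 17 (8.80 CPM) in KO AT1-gated cells. *Krt80* was highest in endothelial-gated cells, at 145.5 and 125 CPM, and stood at 32.3 and 66.1 CPM in transitional-gated and 61.0 and 54.8 CPM in AT1-gated cells. *Krt10* was at 10.3 CPM in KO AT2-gated and 15.1 CPM in KO transitional-gated cells, and *Krt4* had 28 UMIs in KO club-gated cells (4.53 CPM).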

How the data were processed

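Per library, the files the authors deposited hold UMI counts on GRCm38, without normalization. The submitters' notes name Cell Ranger 3.1.0 and STAR, while the matrix headers name Cell Ranger 5.0.0. Cells with over 200 and under 5000 genes and less than 20% mitochondrial UMIs were kept (98.4% of WT and 91.1% of KO barcodes). An epithelial gate needed at least 3 of 6 markers, more than for any other epithelial class, at least 2 of 6 pan-epithelial markers and at most 1 marker each of the immune, endothelial, mesenchymal and mesothelial lists. In transitional-gated cells 38.5% in WT and 30.3% in KO had exactly 3 markers, and 24 and 129 cells with 2 stayed outside.

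UMIs were summed per gate and library and given as CPM with exact Poisson 95% intervals. For log2 ratios, intervals came from the exact binomial split of 2 summed counts, and ratios were taken from 50 summed UMIs for counts of genes past 2-fold, with a count of 0 set to a floor of 3. Ratios of ratios have a Wald interval. Shares of cells were read at 1000 UMIs per cell with exact Clopper-Pearson intervals, and differences of shares with Newcombe intervals. With 1 library per genotype no test was run. The named genes were the 8 members, other *Krt* genes with at least 50 UMIs, 3 lists of partner genes, and the 3 genes most like each member. The members and lists were chosen with earlier results of these data known. The interval of the log2 ratio was tried on simulated independent Poisson counts. These hold no variation between cells, libraries or animals, so the trial bears on counting error only. Alternatives changed the gates, cell filters, doublets (Scrublet called 7.76% of WT and 2.70% of KO cells, which stayed in the main values), clusters in place of gates (scanpy 1.11.5), depth, denominator and TMM factors (edgeR 4.0.16). Gene positions came from GENCODE and promoters from RefSeq, where 5 of the 8 genes had an entry.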

Additional observations from a re-analysis of the deposited data

Results flagged for a closer look

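*Krt7* and *Krt8* differed between the libraries in opposite directions in different gates, with counting intervals on either side of 0. *Krt7* had log2 ratios, KO over WT, of 0.18 in AT1-gated, -0.58 in club-gated and -0.39 in mesothelial-gated cells. The AT1-gated interval stayed off 0 in 9 of 12 alternatives, the club-gated value turned to 0.64 (0.19 to 1.13) with gating at 1000 UMIs, and without the cells that carried *Krt5* (3 in WT) *Krt7* was at 119 CPM in WT club-gated cells and 110.3 CPM in KO ones. *Krt8* had 0.25 in ciliated-gated and -0.16 in AT2-gated cells, where the median of all genes was -0.12 and TMM left -0.039 (-0.16 to 0.08). With 1 library per genotype the difference between gates was not tested.

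*Krt19* was also read outside the epithelium, in immune-gated cells, at 30.8 CPM over the WT library (from 1276 UMIs) and 57.4 CPM over the KO library (from 101), against 7.24 and 7.07 CPM in endothelial-gated cells. The other simple keratins were lower in immune-gated cells of both libraries. *Krt8* was at 6.81 (WT) and 22.2 CPM (KO), *Krt18* at 7.26 and 30.7 CPM and *Krt7* at 9.41 and 17.04 CPM. At 1000 UMIs, 1.76% of 10040 WT and 3.92% of 383 KO immune-gated cells had *Krt19*, and 0.650% and 0.571% of endothelial-gated cells.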

How the results depend on the processing

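The log2 ratio of *Krt8* in transitional-gated cells moved past its interval to -0.073 (-0.17 to 0.03) with up to 3 markers of another lineage, an alternative chosen after seeing the data, as were the limit of 2 and leaving out shared barcodes. In AT2-gated cells it was -0.039 with TMM. The share of transitional-gated cells with all 4 simple keratins, KO minus WT, was -15.6 points when cells were gated at 1000 UMIs (12 WT cells) and 7.32 with all UMIs. The share of AT2-gated cells with *Krt8* and *Krt18* was 1.65 and 11.3 points higher in KO under the same alternatives. The count of members 2-fold apart in transitional-gated cells was 1 in place of 0, *Krt15*, with up to 2 and with up to 3 markers of another lineage. In club-gated cells, gating at 1000 UMIs turned *Krt5* to a bound of 1.71, *Krt7* to 0.64 (0.19 to 1.13) and *Krt15* to 6.72 (from 4.23 upward), and clusters in place of gates turned *Krt15* to 0.54 (0.35 to 0.74). In the club gate of the main values 3 WT cells carried *Krt5*. With clusters the club class held 196 WT and 1110 KO cells, and no cell was classed as basal. The cause of these changes was not tested. Of the other values under an alternative, 321 stayed within the counting interval of the reported value or, for shares of all genes, within 1.5 times, and 29 moved past it without a change of a called direction. No paired analysis was possible because each genotype had 1 library. Without shared barcodes, *Krt8* was at 0.06 in transitional-gated and -0.17 in AT2-gated cells. WT values rest on 52 to 406 cells in the 6 gates, which limits how small a difference can be seen.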

Other observations

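The WT immune-gated cells with at least 3 *Krt19* UMIs (151 of 10754 cells, chosen after values were seen) were led by *Marco*, a scavenger receptor gene of alveolar macrophages, at 616 CPM against 23.3 CPM in those with no *Krt19* UMI, and also had more *Car4* (798 and 49.2 CPM), *Chil3* (6325 and 532 CPM) and *Ear1* (277 and 16.2 CPM). The 10 such KO cells were led by *Ear1* (438 and 12.1 CPM) and *Krt79* (292 and 4.97 CPM), followed by *Krt18* (356 and 8.52 CPM). At 1000 UMIs, 2 of 383 KO immune-gated cells carried *Krt8*, *Krt18* and *Krt19* together, and the part of epithelial RNA in these cells was not tested. *Krt79* and *Krt80* were read in immune-gated cells of both libraries as well, *Krt79* with 742 UMIs in WT (17.9 CPM) and 88 UMIs in KO and *Krt80* at 26.3 and 18.7 CPM, below its 145.5 and 125 CPM in endothelial-gated cells.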
